A study of Mus musculus with 16 samples.

Results

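Transcripts typical of the choroid plexus were followed through dissections of the mouse dentate gyrus, the part of the hippocampus that holds adult neural stem cells. The transcripts were those of 7 genes, Ttr, Kl, Folr1, Aqp1, Clic6, Otx2 and Enpp2, of 24421 gene names in the tables. They were chosen by name, for their known expression in choroid plexus epithelium, with earlier results of these data known. All 7 passed the filter on low values (a mean of at least 0.1 TPM, the abundance of a transcript per length and per library), which left 17317 genes for the tests.

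The study asked how loss of p16Ink4a, an inhibitor of the cell cycle, and voluntary running acted on the dentate gyrus of mice 1 year old. Male C57BL/6 mice with both copies of p16Ink4a (p16 WT) or with none (p16 KO) were either sedentary (CTL) or had a running wheel for 12 days (RUN). The knockout was made on an FVB background, was bred to C57BL/6 and left p19Arf, which shares the locus, functional. Each of the 4 groups had 4 libraries, and each library held the pooled dentate gyri of 2 mice. The labels number the libraries from 1 to 16 through the groups (p16 WT CTL 1 to 4, p16 KO CTL 5 to 8, p16 WT RUN 9 to 12, p16 KO RUN 13 to 16), and these numbers name them here.

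The choroid plexus is a folded sheet of epithelium in the brain ventricles that secretes the cerebrospinal fluid and exports proteins into it. Its lateral fold lies along the fimbria, close to the dentate gyrus, and its epithelium expresses Ttr, the carrier of thyroid hormone and retinol-binding protein, more strongly than nearly any other transcript. The other genes divide by role into a secreted enzyme (Enpp2, autotaxin, which makes lysophosphatidic acid), membrane proteins of transport and signalling (Folr1, the folate receptor alpha; Aqp1, a water channel; Clic6, an intracellular chloride channel family protein; Kl, Klotho, a coreceptor of fibroblast growth factor 23) and a homeobox transcription factor that maintains the epithelium (Otx2). Enpp2 is also expressed by oligodendrocytes and Kl by neurons, whereas Ttr, Folr1, Clic6 and Otx2 are low in neurons of the hippocampus.

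Promoter windows of 250 bases before the start site were available from RefSeq (GRCm38.p6, the assembly of mm10) for 3 of the 7 genes, Kl, Aqp1 and Otx2, and for 24 of 25 other choroid plexus genes used for comparison. Ttr, Folr1, Clic6 and Enpp2 had none there. Otx2 moved with Ttr across the libraries, while Kl kept a nearly even level. Kcnj13, a potassium channel gene of the choroid plexus, correlated with Ttr (r = 0.73), but less so without p16 KO CTL 7 and p16 WT RUN 11 (r = 0.38). For these reasons the 3 windows below are shown. They are printed 5′ to 3′ on the strand of the gene, at chr14:48667645-48667894 on the minus strand for Otx2 (the outermost of its 4 annotated starts), at chr5:150952357-150952606 on the plus strand for Kl and at chr1:87394730-87394979 on the minus strand for Kcnj13. Capitals mark matches on either strand, wherever they lie in the window. The motifs are the TATA box written as TATAAA, the core site of the factor Sp1 written as GGGCGG and the core site of OTX homeodomains written as TAATCC.
Otx2: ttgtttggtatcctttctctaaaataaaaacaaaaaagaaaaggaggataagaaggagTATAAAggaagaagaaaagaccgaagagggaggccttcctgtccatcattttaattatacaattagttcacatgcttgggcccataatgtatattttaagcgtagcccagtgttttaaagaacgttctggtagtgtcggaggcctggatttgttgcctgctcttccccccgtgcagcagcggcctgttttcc
Kl: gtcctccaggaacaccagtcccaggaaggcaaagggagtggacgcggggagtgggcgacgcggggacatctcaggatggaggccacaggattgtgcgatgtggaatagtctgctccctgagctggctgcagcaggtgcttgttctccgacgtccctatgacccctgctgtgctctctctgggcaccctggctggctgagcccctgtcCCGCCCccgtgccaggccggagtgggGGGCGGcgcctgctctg
Kcnj13: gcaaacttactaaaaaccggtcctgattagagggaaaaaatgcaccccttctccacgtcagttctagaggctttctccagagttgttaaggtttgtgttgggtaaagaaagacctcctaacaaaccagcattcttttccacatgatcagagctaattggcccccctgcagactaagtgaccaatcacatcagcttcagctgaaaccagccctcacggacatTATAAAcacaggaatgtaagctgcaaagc
The Otx2 and Kcnj13 windows each held 1 match to TATAAA and no Sp1 core, and the Kl window held 2 Sp1 cores and no TATAAA. The match lay far from the start in the Otx2 window and close to it in that of Kcnj13, so only the letters are alike. G and C made up 42.0% of the Otx2 window, 45.2% of that of Kcnj13 and 66.8% of that of Kl. This contrast did not extend to all genes that correlated with Ttr. The window of Col8a1, a collagen gene and the closest to Ttr among the other choroid plexus genes, held 4 Sp1 cores and no TATA box with 60.8% G and C, and that of Tmem72 held neither motif with 58.8%. The other 3 windows of Otx2 held no TATA box and had 48.4% to 53.6% G and C. Of 32851 promoter windows of this length, 12.4% held the TATA box, 32.7% the Sp1 core and 6.25% the OTX core. None of these 3 windows held the OTX core, but the window of another start of Otx2, at chr14:48665110-48665359, had 1 at position -211 from that start. The matches describe letters in these windows and no binding was measured.

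Depth, taken as coverage per base over FPKM, ran from 5.42 aligned gigabases in p16 WT RUN 10 to 16.8 gigabases in p16 WT CTL 2. The second deepest library was p16 KO CTL 7, at 14.6 gigabases, and p16 WT CTL 1 came next, at 9.22 gigabases. Cdkn2a, the gene name under which p16 and p19Arf share 1 entry, was listed at 0 in 3 of 8 p16 WT and 5 of 8 p16 KO libraries and at most at 0.586 TPM elsewhere, so that it did not check the genotype labels. A set of 3 libraries stood apart in the summed level of Malat1, Meg3, Snhg11 and Miat, long noncoding RNAs of which much stays in the nucleus: p16 KO CTL 7 had 271 TPM, p16 KO CTL 6 had 368 TPM and p16 WT CTL 2 had 758 TPM, against 1536 to 2159 TPM in the other libraries. These 4 RNAs were picked after their values were seen. The same 3 libraries lay at the negative end of the first principal component (20.9% of the variance), at -70.3, -58.8 and -26.6. The summed level of 6 dentate granule neuron markers was lowest in p16 KO CTL 8, at 559 TPM, and was 837 TPM in p16 KO CTL 7 and 724 to 1495 TPM in the other libraries.

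Ttr was detected in all 16 libraries and varied more than 100-fold among them, while Kl and Enpp2 kept a nearly even level. On mm10, the genome build of the tables, Ttr spans chr18:20665250-20674326 on the plus strand. In p16 WT CTL, libraries 1 to 4 had 33.3, 27.7, 11.5 and 8.04 TPM of Ttr. In p16 KO CTL, libraries 5 to 8 had 12.5, 25.2, 190.8 and 16.4 TPM. Library 7 was far above the other 3 of its group and above every other library.

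In p16 WT RUN, libraries 9 to 12 had 16.4, 10.4, 1.82 and 25.1 TPM of Ttr. In p16 KO RUN, libraries 13 to 16 had 42.6, 20.1, 7.88 and 20.6 TPM. The lowest level of the series, in p16 WT RUN 11, was 104.6-fold below that of p16 KO CTL 7, and the next highest library after p16 KO CTL 7 was p16 KO RUN 13. All 4 groups overlapped. The group means were 20.1 ± 12.3 TPM in p16 WT CTL, 61.2 ± 86.6 TPM in p16 KO CTL, 13.4 ± 9.82 TPM in p16 WT RUN and 22.8 ± 14.4 TPM in p16 KO RUN (SD, n = 4). The coverage behind these values ran from 4.01 reads per base in p16 WT RUN 11 to 1022 reads per base in p16 KO CTL 7.

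**Figure D1:**
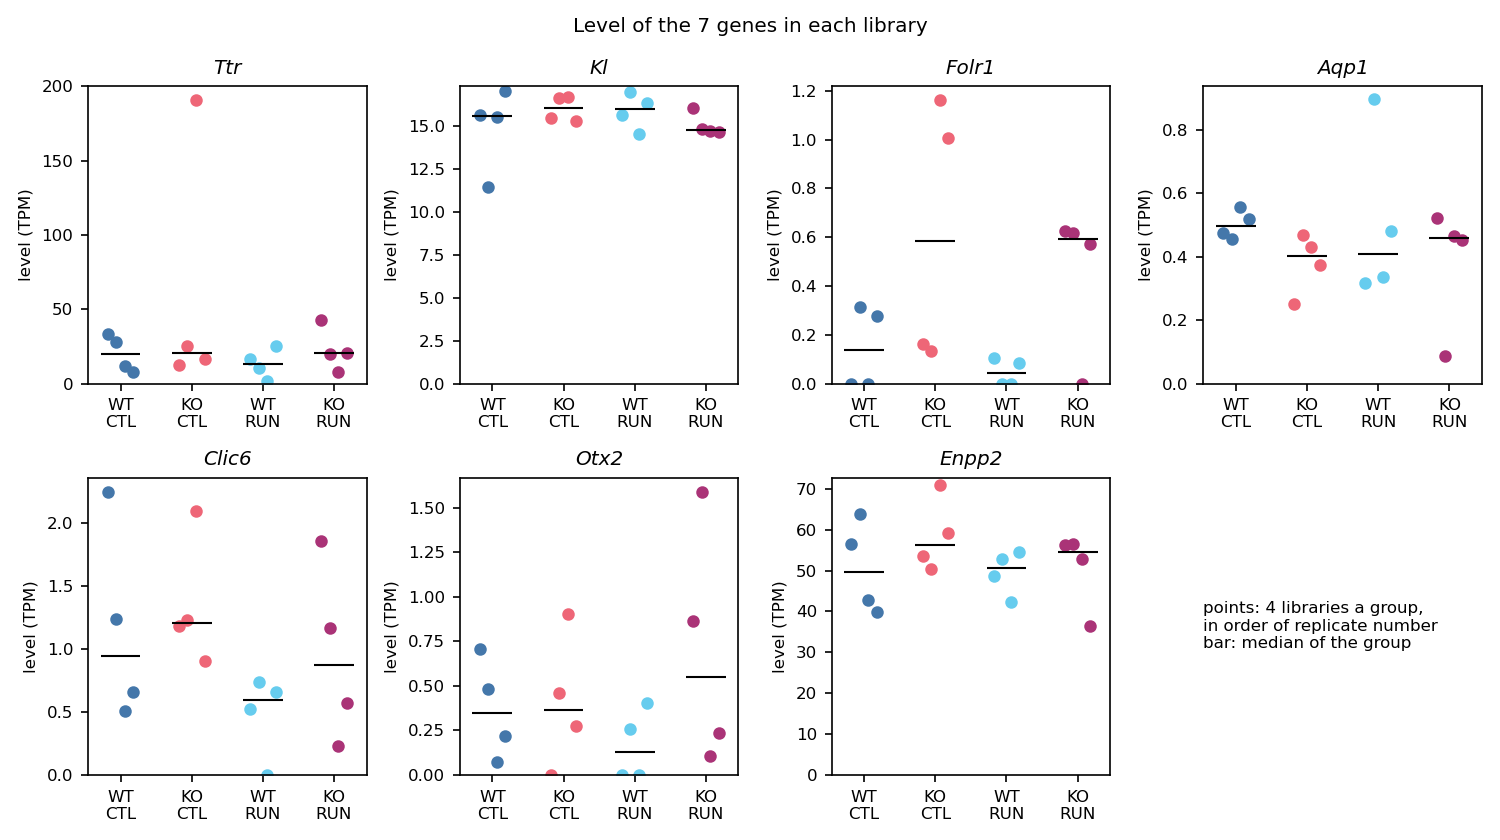
Level of each of the 7 genes (TPM, linear axis from 0) in every library, by group; points are the 4 libraries of a group in order of their number and bars the group medians. Ttr reached 190.8 TPM in p16 KO CTL 7 and Kl stayed between 11.4 and 17.0 TPM throughout.

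Clic6 and Otx2 were low, and both ran high and low in much the same libraries as Ttr. Clic6 spans chr16:92498147-92541241 on the plus strand. It had 2.25, 1.24, 0.510 and 0.654 TPM in p16 WT CTL 1 to 4 and 1.18, 1.23, 2.09 and 0.907 TPM in p16 KO CTL 5 to 8. It had 0.527, 0.740, 0 and 0.661 TPM in p16 WT RUN 9 to 12 and 1.86, 1.16, 0.228 and 0.573 TPM in p16 KO RUN 13 to 16. Clic6 was thus listed at 0 in p16 WT RUN 11, the library lowest in Ttr, and was above 1.8 TPM in p16 WT CTL 1, p16 KO CTL 7 and p16 KO RUN 13, the 3 libraries highest in Ttr.

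Otx2, the transcription factor gene, spans chr14:48657677-48667644 on the minus strand. It had 0.707, 0.480, 0.0748 and 0.217 TPM in p16 WT CTL 1 to 4 and 0, 0.461, 0.904 and 0.274 TPM in p16 KO CTL 5 to 8. It had 0, 0.258, 0 and 0.404 TPM in p16 WT RUN 9 to 12 and 0.864, 1.59, 0.105 and 0.233 TPM in p16 KO RUN 13 to 16. It was listed at 0 in 3 libraries and was highest in p16 KO RUN 14, where Ttr, at 20.1 TPM, was near the middle of the series.

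Folr1, the folate receptor, was listed at 0 in 5 libraries and reached 1 TPM in only 2. The gene spans chr7:101858331-101870788 on the minus strand. It had 0, 0.314, 0 and 0.277 TPM in p16 WT CTL 1 to 4 and 0.162, 0.135, 1.16 and 1.01 TPM in p16 KO CTL 5 to 8. It had 0.105, 0, 0 and 0.0841 TPM in p16 WT RUN 9 to 12 and 0.627, 0.615, 0 and 0.572 TPM in p16 KO RUN 13 to 16. Of the 8 p16 KO libraries, 5 lay above every p16 WT library, and p16 KO RUN 15, at 0, lay below the others of its group. The coverage of Folr1 in p16 WT RUN 9, 0.213 reads per base, was the smallest above 0, and that of p16 KO CTL 5 and 6 was 2.0 times as large. Coverage this low rests on few read pairs.

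Aqp1, the water channel, stayed below 1 TPM everywhere and was highest in p16 WT RUN 10. The gene spans chr6:55336299-55348555 on the plus strand. It had 0.475, 0.455, 0.556 and 0.518 TPM in p16 WT CTL 1 to 4 and 0.249, 0.467, 0.431 and 0.374 TPM in p16 KO CTL 5 to 8. It had 0.317, 0.897, 0.337 and 0.481 TPM in p16 WT RUN 9 to 12 and 0.522, 0.0870, 0.465 and 0.453 TPM in p16 KO RUN 13 to 16. Its level in p16 KO CTL 7, the library richest in Ttr, was only the 11th highest, and the group means lay between 0.380 and 0.508 TPM.

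Kl was the most even of the 7 genes, with a coefficient of variation of 8.80% over the 16 libraries, against 150.7% for Ttr and 17.1% for Enpp2. The value of Ttr includes p16 KO CTL 7, at 190.8 TPM, where the next highest library had 42.6 TPM. The Kl gene spans chr5:150952607-150993817 on the plus strand. It had 15.6, 11.4, 15.5 and 17.0 TPM in p16 WT CTL 1 to 4 and 15.4, 16.6, 16.7 and 15.3 TPM in p16 KO CTL 5 to 8. It had 15.7, 17.0, 14.5 and 16.3 TPM in p16 WT RUN 9 to 12 and 16.0, 14.8, 14.7 and 14.6 TPM in p16 KO RUN 13 to 16. Only p16 WT CTL 2, 1 of the 3 libraries low in nuclear RNA, fell below 14 TPM. The group means were 14.9 ± 2.42, 16.0 ± 0.749, 15.9 ± 1.05 and 15.0 ± 0.672 TPM in the order of the groups above (SD, n = 4).

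Enpp2 was the highest of the 7 genes in every library but p16 KO CTL 7, where Ttr passed it. The gene spans chr15:54838679-54920146 on the minus strand. It had 56.6, 64.0, 42.7 and 39.9 TPM in p16 WT CTL 1 to 4 and 53.7, 50.4, 71.0 and 59.1 TPM in p16 KO CTL 5 to 8. It had 48.8, 52.8, 42.4 and 54.4 TPM in p16 WT RUN 9 to 12 and 56.2, 56.4, 53.0 and 36.4 TPM in p16 KO RUN 13 to 16. The highest level was 1.95 times the lowest, and the group means lay between 49.6 and 58.6 TPM. Summed over the 7 genes, the level was 283.2 TPM in p16 KO CTL 7 and 59.1 to 118.6 TPM in the other 15 libraries. Ttr made up 67.4% of that sum in p16 KO CTL 7 and 3.09% to 35.9% elsewhere. TPM values are per length, so these shares compare transcripts.

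Whether the 7 genes rose and fell together was measured over the 16 libraries by correlating log2(scaled TPM + 0.1). All 21 pairs were correlated, with p-values from 100000 permutations and Benjamini-Hochberg adjustment over the 21 pairs. Ttr and Clic6 had r = 0.85 (permutation p = 2e-05, adjusted p = 0.00042) and rho = 0.85 (permutation p = 6e-05, adjusted p = 0.00126). Without the 2 libraries farthest from the median of Ttr, p16 KO CTL 7 and p16 WT RUN 11, r was 0.75, and after removing the group means it was 0.83. Without the 3 libraries low in nuclear RNA it was 0.88. The relation of this ion channel family protein with Ttr was thus present within the groups as well as across them.

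Otx2 correlated with Ttr at r = 0.70 (permutation p = 0.00144, adjusted p = 0.0101) and rho = 0.81 (permutation p = 0.0002, adjusted p = 0.00168). The r was 0.64 without the same 2 libraries, 0.71 within groups and 0.66 without the 3 libraries low in nuclear RNA. Otx2 and Clic6 correlated at r = 0.70 (permutation p = 0.00144, adjusted p = 0.0101) and rho = 0.81 (permutation p = 0.00024, adjusted p = 0.00168), with r = 0.66 without the 2 libraries farthest in Clic6 and 0.72 within groups. Ttr, Clic6 and Otx2 therefore shared a pattern that did not depend on p16 KO CTL 7 alone.

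The r of Ttr with the other 4 genes was lower. With Enpp2, r was 0.68 (permutation p = 0.00465, adjusted p = 0.0244) and rho 0.74 (permutation p = 0.00157, adjusted p = 0.00549), with r = 0.44 without the 2 farthest libraries and 0.64 within groups. With Folr1, r was 0.60 (permutation p = 0.00998, adjusted p = 0.0397) and rho 0.51 (permutation p = 0.0455, adjusted p = 0.106), and r was 0.35 without the 2 farthest libraries and 0.48 within groups. The relation with Folr1 rested on those libraries. With Kl, r was 0.35 (permutation p = 0.176, adjusted p = 0.336) and turned to -0.14 without the 2 farthest libraries, and with Aqp1 it was 0.08 (permutation p = 0.737, adjusted p = 0.859). Clic6 with Enpp2 had r = 0.62 (permutation p = 0.0113, adjusted p = 0.0397) and rho = 0.79 (permutation p = 0.00048, adjusted p = 0.00248), with r = 0.74 without the 2 libraries farthest in Clic6 (p16 WT RUN 11 and p16 KO RUN 15), 0.55 without p16 KO CTL 7 and 0.60 within groups. Otx2 with Enpp2 passed by rho, at 0.78 (permutation p = 0.00059, adjusted p = 0.00248), but not by r, at 0.56 (permutation p = 0.0231, adjusted p = 0.0693). No other pair passed by either measure, so that no relation of Kl or Aqp1 with another of the 7 genes passed the test.

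**Figure D2:**
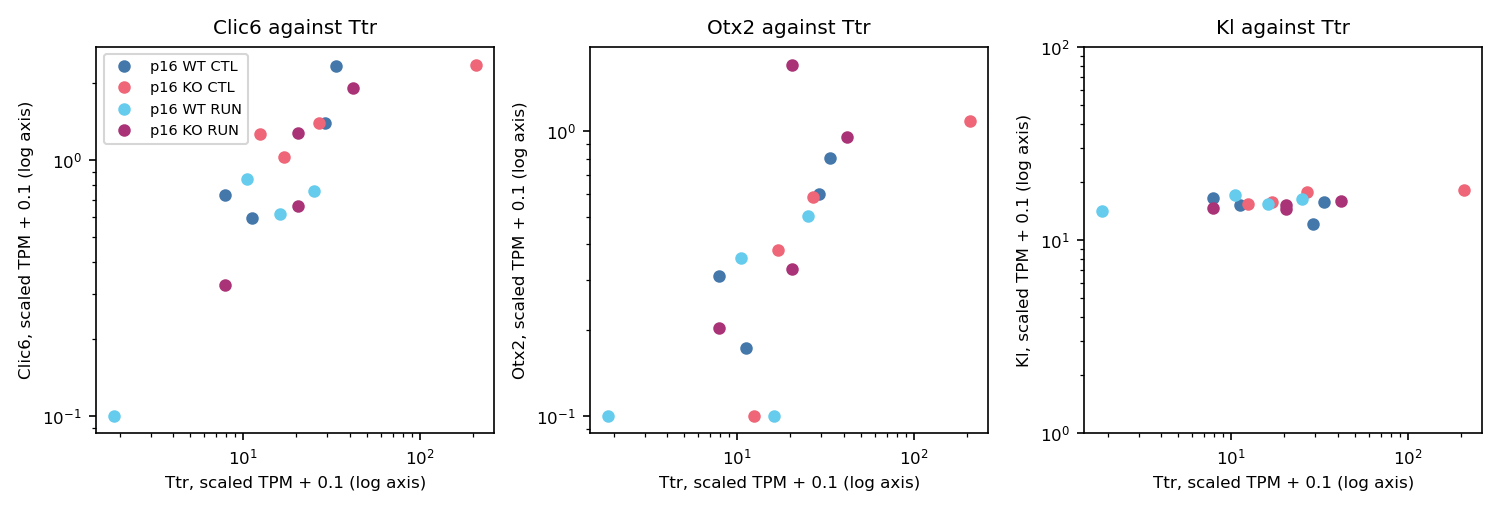
Scaled TPM + 0.1 of Clic6, Otx2 and Kl against that of Ttr in the 16 libraries (both axes logarithmic), coloured by group. Clic6 and Otx2 rose with Ttr (r = 0.85 and 0.70), and the r for Kl was 0.35, which did not pass the test.

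Transcripts of neighbouring cell types were summed in each library to see what else moved with the 7 genes, giving 56 correlations of the 7 genes with 8 lists. Enpp2 rose with the sum of 10 oligodendrocyte markers, at r = 0.84 (permutation p = 0.0001, adjusted p = 0.0056) and rho = 0.78 (permutation p = 0.00063, adjusted p = 0.0176). The r was 0.80 without the 2 libraries farthest in Enpp2 and 0.81 within groups, and 0.74 without the 3 libraries low in nuclear RNA. Enpp2 fell as the sum of the 6 dentate granule neuron markers rose, at r = -0.76 (permutation p = 0.00066, adjusted p = 0.0185) and rho = -0.85 (permutation p = 0.0001, adjusted p = 0.0056), with r = -0.77 without those 2 libraries and -0.72 within groups. The oligodendrocyte sum ran from 1050 to 2149 TPM in p16 WT CTL, from 1551 to 2575 TPM in p16 KO CTL, from 1315 to 1904 TPM in p16 WT RUN and from 1233 to 1582 TPM in p16 KO RUN. Its part in the level of Enpp2 was not tested further.

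Folr1 ran highest with the 11 markers of ependyma, the ciliated lining of the ventricles, but this did not pass the adjustment (r = 0.67, permutation p = 0.00417, adjusted p = 0.0778; rho = 0.64, permutation p = 0.00851, adjusted p = 0.159). The r was 0.63 without the 2 libraries farthest in Folr1 and 0.60 within groups. With the list for meningeal fibroblasts, r of Folr1 was 0.57, and 0.72 within groups, above that of ependyma. With thalamus and habenula it was 0.61, and 0.36 within groups. The ependymal sum was highest in p16 KO RUN 14 (55.1 TPM) and p16 KO CTL 8 (54.9 TPM), where Folr1 had 0.615 and 1.01 TPM. Its range was 22.4 to 34.6 TPM in p16 WT CTL, 34.4 to 54.9 TPM in p16 KO CTL, 27.5 to 43.4 TPM in p16 WT RUN and 32.7 to 55.1 TPM in p16 KO RUN. Of the 11 markers, 1 to 3 were at 0 in 5 libraries and none in the other 11. For Ttr, r was 0.23 (permutation p = 0.397, adjusted p = 0.748) against ependyma. The highest r of Ttr was 0.64, with thalamus and habenula (permutation p = 0.00892, adjusted p = 0.122). It was 0.23 without the 2 libraries farthest in Ttr and 0.54 within groups. With the oligodendrocyte sum, r of Ttr was 0.49 (permutation p = 0.0536, adjusted p = 0.375). Beside the 2 of Enpp2, no correlation passed the adjustment, including those with the lists for meningeal fibroblasts, endothelium, blood, thalamus and habenula, and with the sum of the other choroid plexus genes.

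**Figure D3:**
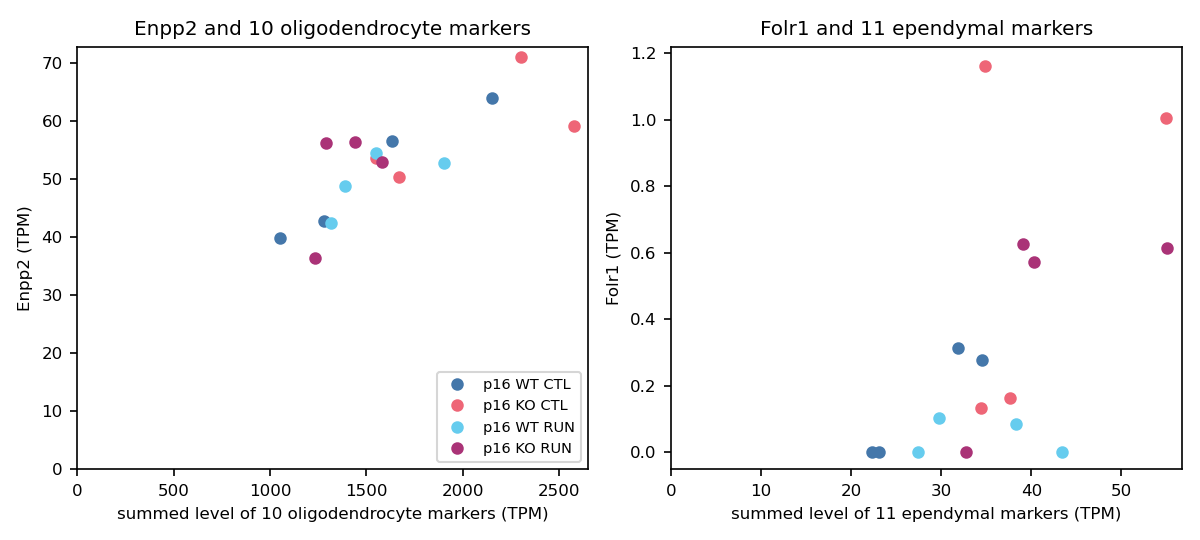
Enpp2 against the summed level of 10 oligodendrocyte markers and Folr1 against that of 11 ependymal markers (TPM), 1 point for each of the 16 libraries, coloured by group. Enpp2 rose with the oligodendrocyte sum (r = 0.84), and the r of Folr1 with the ependymal sum, 0.67, did not pass the adjustment (permutation, adjusted p = 0.0778).

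The genotypes and treatments were compared in the 5 pairwise sets of the study and in their interaction, with limma on log2(scaled TPM + 0.1). Each named gene was also put to an exact permutation test, two-sided, that assigned the 8 libraries to groups of 4 in all 35 ways, which allows no p below 0.0286. Differences below are log2 fold changes ± SE of the first-named group minus the second, which understate changes of genes near 0 TPM because of the added 0.1. In bulk tissue, fewer cells of a type and less RNA per cell cannot be told apart. A gene was called at the unadjusted limma p under 0.05 that the study used.

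None of the 7 genes was called in Set A (p16 KO RUN minus p16 KO CTL), where 18.5% of all genes were. None was called in Set B (p16 KO CTL minus p16 WT CTL) against 6.69% of all genes, nor in Set C (p16 WT RUN minus p16 WT CTL) against 4.81%. None was called in Set D (p16 KO RUN minus p16 WT CTL) against 8.63%, nor in the interaction of genotype with running against 5.48%. In Set E (p16 KO RUN minus p16 WT RUN), 1 of the 7 was called, against 3.87% of all genes. With so few genes these shares do not set the 7 apart from the rest. After adjustment over all genes none of the 7 was called, against 0.0173% of all genes in Set A (3 genes), 0.00577% in Set E (1 gene) and 0% in Sets B, C, D and the interaction. In no set did the groups fail to overlap for any of the 7 genes, which they did for 10.0%, 2.81%, 3.34%, 5.56% and 2.49% of all genes in Sets A to E.

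The 1 call was Folr1 in Set E. Its libraries were 0.627, 0.615, 0 and 0.572 TPM in p16 KO RUN and 0.105, 0, 0 and 0.0841 TPM in p16 WT RUN, with 2.11% of all genes called higher in this set. The difference was 1.63 ± 0.68, with a limma p of 0.0395, an adjusted p of 1 and an exact permutation p of 0.143. The call was lost in 6 of the 8 fits that left out 1 library, where the difference ran from 1.38 to 2.33. In Set B, the sedentary p16 KO libraries exceeded the p16 WT ones by 1.49 ± 0.76 (exact permutation p = 0.171), and the difference was called in 3 of 8 fits that left out 1 library, with values from 1.06 to 1.89. Set D, which shares p16 KO RUN with Set E and p16 WT CTL with Set B, gave 1.11 ± 0.79 (exact permutation p = 0.229) and was called without p16 KO RUN 15, at 1.81. The running comparisons were -0.38 ± 0.82 in Set A and -0.52 ± 0.61 in Set C (exact permutation p = 0.771 and 0.543). The interaction was 0.14 ± 1.08 (limma, adjusted p = 0.978), so that the difference between genotypes was not shown to depend on running. The ependymal sums given above were also higher in p16 KO CTL than in p16 WT CTL, with 1 library of each group overlapping, and their part in the Folr1 values was not tested.

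No difference of Ttr was much larger than its error, and several were smaller. It was 0.94 ± 0.86 in Set B (exact permutation p = 0.486) and -0.77 ± 0.85 in Set A (exact permutation p = 0.6), both of which contain p16 KO CTL 7. Without that library the Set B difference was 0.05 and the Set A difference 0.12. In Set C it was -0.86 ± 0.78 (exact permutation p = 0.486) and in Set E 1.03 ± 0.78 (exact permutation p = 0.4), both of which contain p16 WT RUN 11, and without it they were -0.08 and 0.25. In Set D, which contains neither library, it was 0.17 ± 0.58 (exact permutation p = 0.83). The interaction was 0.09 ± 1.26 (limma, adjusted p = 0.989) and ran from -0.69 without p16 WT RUN 11 to 0.97 without p16 KO CTL 7.

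Clic6 and Otx2 also had wide errors. Clic6 was 0.40 ± 0.46 in Set B, -0.76 ± 0.53 in Set A and -1.30 ± 0.72 in Set C (exact permutation p = 0.457, 0.286 and 0.257), and -0.58 in Set C without p16 WT RUN 11. In Set E it was 0.94 ± 0.77 (exact permutation p = 0.4), and 0.22 without p16 WT RUN 11, and in Set D -0.36 ± 0.61 (exact permutation p = 0.6). It was called in Set A without p16 KO RUN 13, at -1.15, and was -0.29 there without p16 KO RUN 15. Without the libraries low in nuclear RNA it was -0.42 in Set A and 0.18 in Set B, and neither was called. Otx2 was -0.02 ± 0.76 in Set B, 0.54 ± 0.85 in Set A, -0.96 ± 0.69 in Set C and 1.48 ± 0.80 in Set E (exact permutation p = 0.971, 0.629, 0.229 and 0.171). It was called in Set E without p16 KO RUN 15, at 1.98.

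Enpp2, Kl and Aqp1 had differences below 0.5 in size in Sets A to E. Enpp2 was 0.28 ± 0.19 in Set B and -0.29 ± 0.17 in Set A (exact permutation p = 0.257 and 0.229), and within 0.03 of 0 in Sets C, D and E. It was called in Set B without p16 WT CTL 2, at 0.42. The oligodendrocyte sum, with which Enpp2 moved, had its highest group median in p16 KO CTL, at 1986 TPM, against 1365 to 1467 TPM in the other groups. Kl, with the smallest errors, was -0.16 ± 0.08 in Set A and 0.18 ± 0.12 in Set B (exact permutation p = 0.0857 and 0.171), and 0.09 ± 0.11, 0.02 ± 0.10 and -0.07 ± 0.08 in Sets C to E. It was called in Set A without p16 KO CTL 5, at -0.20, and was -0.05 there without the libraries low in nuclear RNA. In the interaction, Kl was -0.25 with all 16 libraries and was called without p16 WT CTL 4, at -0.30. It was -0.15 there without p16 WT CTL 2 and -0.043 without the 3 libraries low in nuclear RNA. Aqp1 lay between -0.46 ± 0.39 in Set D and -0.08 ± 0.33 in Set C (exact permutation p = 0.171 and 0.943). The median difference of the 7 genes was -0.29, 0.28, -0.52, 0.02 and 0.94 for Sets A to E, beside medians of all genes tested within 0.02 of 0. Single libraries moved these medians, to 0.22 in Set E and -0.08 in Set C without p16 WT RUN 11, and to -0.10 in Set A and 0.14 in Set B without p16 KO CTL 7. In Set D, leaving out each library in turn gave -0.13 to 0.15.

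**Figure D4:**
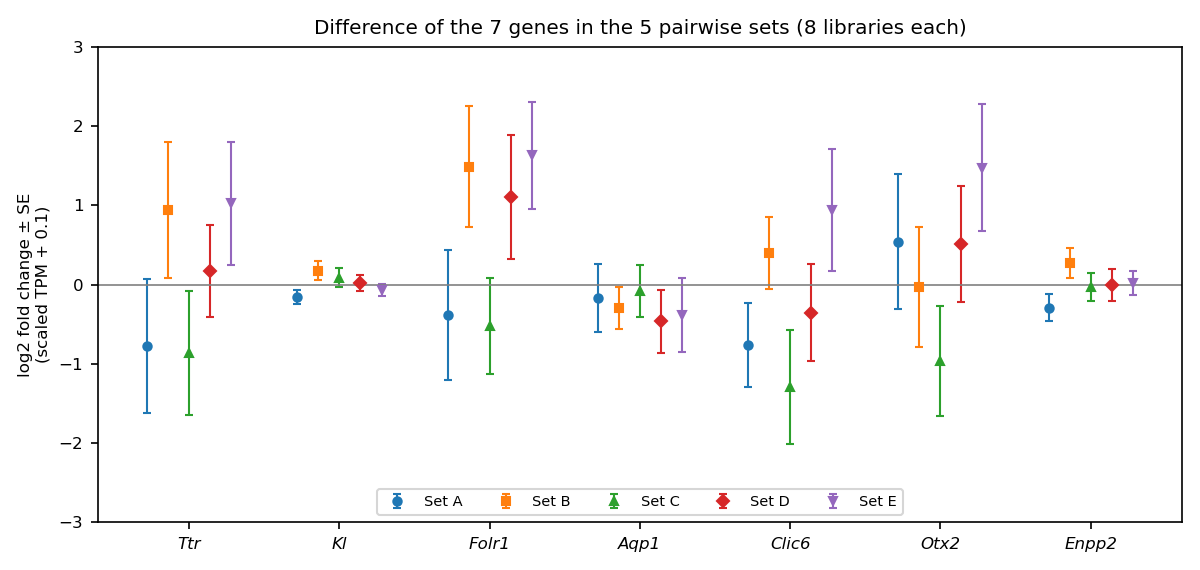
Log2 fold change ± SE (limma, scaled TPM + 0.1) of the 7 genes in Sets A to E, 8 libraries in each. The errors of Ttr, Folr1, Clic6 and Otx2 spanned 0.46 to 0.86, against 0.08 to 0.20 for Kl and Enpp2, and the 1 difference with p under 0.05 was Folr1 in Set E (1.63).

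Other genes of choroid plexus epithelium were read from a list of 25, of which 22 passed the filter and Slc4a5, Slco1a5 and Mfrp did not. The 5 with the highest mean TPM were Slc29a4, a monoamine transporter, Igfbp2, a binding protein of insulin-like growth factors, Cab39l, Ace, the angiotensin-converting enzyme, and Msx1, a homeobox factor. Most of these are also expressed by other brain or vascular cells. In p16 KO CTL 7, 7 of the 22 tested genes (31.8%) had their highest level of the 16 libraries, against 5.26% of all genes tested. On scaled TPM the count was also 7 of 22, against 12.0% of all genes. Among the 7 genes of the main list, Ttr, Folr1 and Enpp2 were highest there on TPM as deposited, Clic6 and Otx2 second highest and Kl next. On scaled TPM, 5 of the 7 were highest there, with Clic6 and Kl added. Of the 22 other genes, 4 were highest in p16 WT RUN 9 on TPM as deposited (18.2%, against 6.11% of all genes) and 2 on scaled TPM. On TPM as deposited, p16 WT RUN 10 and p16 KO RUN 14 had 3 each, and p16 KO RUN 13, second in Ttr, had 2. The sum of the 25 listed genes was 162.1 TPM in p16 KO CTL 7, within the 128.3 to 193.9 TPM of the series.

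The other choroid plexus genes highest in p16 KO CTL 7 included transporters and channels. Kcnj13 had 1.45 TPM there, 4.01 times the median of the other 15 libraries, and Kcne2, a potassium channel subunit, had 1.14 TPM, 4.08 times that median. Tmem72, a membrane protein gene, had 0.445 TPM and Col8a1, a collagen gene, 0.491 TPM, 6.27 and 3.39 times that median. F5, coagulation factor V, had 0.811 TPM (1.96 times), Cab39l 26.1 TPM (1.17 times) and Steap1 0.360 TPM. Slc4a5, a bicarbonate transporter below the filter, had 0.398 TPM, 15.0 times the median of the other libraries. Several low choroid plexus transcripts were thus raised in the library in which Ttr was raised 11.6 times over that median, while Slc29a4, Lmx1a and Abca4 were 0.618, 0.548 and 0.512 times theirs. This library had the lowest nuclear RNA sum of the series. Its sum of 10 oligodendrocyte markers, 2302 TPM, and of 6 thalamus and habenula markers, 309.8 TPM, were each the second highest, and its sum of 6 endothelial markers, 66.9 TPM, was the second lowest. The part of these in its choroid plexus values was not tested.

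**Figure D5:**
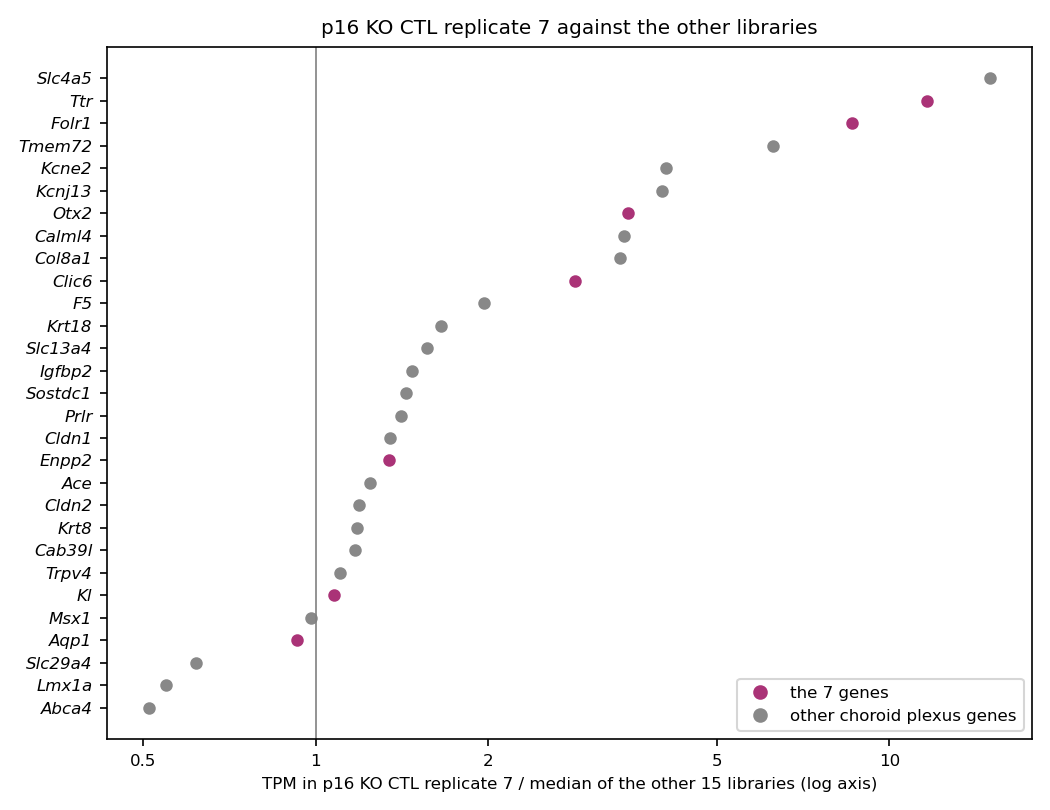
TPM in p16 KO CTL 7 over the median of the other 15 libraries (log axis) for the 7 genes and for other choroid plexus genes with a median above 0. Slc4a5 (15.0), Ttr (11.6) and Folr1 (8.59) lay farthest from 1, and Aqp1 (0.925) and Kl (1.08) lay near it.

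Ttr was also correlated with each of the 22 other choroid plexus genes. It passed the adjustment over the 22 with 7 of them, Col8a1, Kcnj13, Ace, Tmem72, Cab39l, Kcne2 and Slc13a4, by r, and by rho with Col8a1, Slc13a4, Tmem72 and Ace of these. The r of Cab39l, 0.62, was 0.33 without the 2 farthest libraries and 0.20 without the 3 low in nuclear RNA. Col8a1 had the highest value, r = 0.91 (permutation p = 5e-05, adjusted p = 0.0011) and rho = 0.80 (permutation p = 0.00041, adjusted p = 0.00495), with 0.67 without the 2 farthest libraries and 0.90 within groups. Kcnj13 had r = 0.73 (permutation p = 0.0019, adjusted p = 0.0139) and rho = 0.58 (permutation p = 0.02, adjusted p = 0.0881), with 0.38 without the 2 farthest libraries and 0.74 within groups. The relation with Kcnj13 was thus weaker without p16 KO CTL 7 and p16 WT RUN 11. Slc13a4, a sulfate transporter, had r = 0.60 (permutation p = 0.0144, adjusted p = 0.0453), rho = 0.79 (permutation p = 0.00045, adjusted p = 0.00495) and 0.72 without those 2 libraries.

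Of the 22 other genes, the sets from A to E called 4, 1, 2, 3 and 1 and the interaction none, and none passed the adjustment over all genes. In Set A this was 18.2% of the 22, against 18.5% of all genes, and in Sets B to E it was 4.55%, 9.09%, 13.6% and 4.55%, against 6.69%, 4.81%, 8.63% and 3.87%. The groups did not overlap for 9.09% of the 22 in Set A, 0% in Sets B and E and 13.6% in Sets C and D. Of all genes this was 10.0%, 2.81%, 3.34%, 5.56% and 2.49% in Sets A to E. With 22 genes these shares do not set the list apart from the rest. Abca4 did not overlap in Set C, at 0.972 to 1.18 TPM in p16 WT RUN against 0.613 to 0.925 TPM in p16 WT CTL, but was not called. Prlr, the prolactin receptor, had 0.689 to 0.876 TPM in p16 WT CTL, 0.686 to 1.36 TPM in p16 KO CTL, 0.963 to 2.88 TPM in p16 WT RUN and 1.54 to 2.36 TPM in p16 KO RUN. The running groups did not overlap the sedentary groups of their own genotype. The difference was 0.98 ± 0.26 in Set A (limma p = 0.00413, adjusted p = 0.165, exact permutation p = 0.0286). It was 1.06 ± 0.38 in Set C (limma p = 0.0202, adjusted p = 0.985, exact permutation p = 0.0286) and 1.25 ± 0.19 in Set D (limma p = 0.000108, adjusted p = 0.118, exact permutation p = 0.0286). Without the 3 libraries low in nuclear RNA these were 1.22, 1.05 and 1.25. The sets share libraries, Sets A and D those of p16 KO RUN and Sets C and D those of p16 WT CTL. Over the libraries, Prlr with Ttr did not pass the test (r = 0.11, permutation p = 0.692, adjusted p = 0.766).

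Cab39l ran lower in both running groups, at 20.2 to 22.0 TPM in p16 KO RUN and 20.1 to 22.3 TPM in p16 WT RUN, against 22.5 to 26.1 TPM in p16 KO CTL and 22.5 to 24.8 TPM in p16 WT CTL. The difference was -0.28 ± 0.08 in Set A (limma p = 0.00853, adjusted p = 0.191, exact permutation p = 0.0286) and -0.17 ± 0.07 in Set C (limma p = 0.0423, adjusted p = 0.985, exact permutation p = 0.0286). Without the libraries low in nuclear RNA the differences were -0.16 and -0.12, and neither was called. In Set D, where the groups did not overlap either, it was -0.17 ± 0.07 (limma p = 0.0319, adjusted p = 0.525, exact permutation p = 0.0286), and -0.12 and not called without the library low in nuclear RNA. Igfbp2 was higher in Set B, by 0.60 ± 0.20 (limma p = 0.0156, adjusted p = 0.625, exact permutation p = 0.0571), with its highest levels in p16 KO CTL 6 and 7, and by 0.36 without the libraries low in nuclear RNA, where it was still called. Ace was higher in Set E, by 0.47 ± 0.20 (limma p = 0.0451, adjusted p = 1, exact permutation p = 0.0857), and in Set D, by 0.41 ± 0.15 (limma p = 0.025, adjusted p = 0.49, exact permutation p = 0.0571). It had 4.35 to 5.97 TPM in p16 KO RUN and 3.28 to 4.33 TPM in p16 WT CTL, which did not overlap, and the Set D difference was 0.48 and still called without the library low in nuclear RNA. Slc29a4 was higher in Set A, by 0.48 ± 0.18 (limma p = 0.0256, exact permutation p = 0.0857), and Tmem72 lower, by -0.98 ± 0.43 (limma p = 0.0499, exact permutation p = 0.0571), and without the libraries low in nuclear RNA the differences were 0.52 and -0.60 and neither was called.

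Among the 10 genes whose pattern over the 16 libraries was most like the mean z-score of the 7 genes were Fbxl15 (r = 0.90), Wbscr27 (0.88), Haus2 (0.87), Vti1a (0.86), Setd3 (0.86), Slc30a9, Sqrdl, Ifngr2 and Cmas (0.83 each), taken from genes of at least 1 TPM on average. Of these 9, all but Vti1a were highest in p16 KO CTL 7, at levels such as 154.5 TPM for Setd3 against a mean of 141.3 TPM, and without that library their r was 0.72 to 0.85. For single genes, the closest were Haus2 for Ttr (r = 0.87), Arf1 for Kl (0.80), Rps6ka1 for Folr1 (0.77), Ms4a6d for Aqp1 (0.85), Ubxn8 for Clic6 (0.91), Vti1a for Otx2 (0.83) and Sult4a1 for Enpp2 (0.95). These values describe likeness over 16 libraries that share depth and composition, and no p is given for them.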

How the data were processed

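Bulk RNA was sequenced from 16 dentate gyrus libraries, each from 2 pooled mice. Per the study's methods and the submitters' processing notes, libraries of the Universal Plus mRNA-Seq kit were sequenced as pairs of 150 bases, and the authors processed them with bcl2fastq 2.20, Cutadapt 1.11, ERNE, STAR on mm10 and StringTie. Per the file headers, the deposited tables give for each gene a coverage per base, FPKM and TPM. The deposited TPM values sum to the same total in each library. No read counts were used here, so DESeq2, which the authors ran on counts, was replaced by limma 3.58.1 (R 4.3.3).

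Entries of 1 gene name (112 to 130 names a library had several) were summed. TPM was divided by a factor of each library from the 13226 genes of at least 1 TPM in all libraries. The test was limma with a variance trend on log2(scaled TPM + 0.1), over the 17317 genes whose mean TPM reached 0.1, two-sided, with the 2 groups of each set, and with all 16 libraries for the interaction. Benjamini-Hochberg adjustment ran over all genes tested. The fit was tested on simulated data: of 200 genes shifted by 2 on the log2 scale, 99.5% were called in Set A and 99.5% in the interaction, each over 17317 genes.

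Depth was taken as the median of coverage over FPKM and limits the precision of values below 1 TPM. Per the study's methods the 4 samples of a group were independent pools, and p-values measure the spread between these pools. The 7 genes, the other choroid plexus genes and the lists of cell type markers were chosen with earlier results of these data known. Named genes were all 7, other choroid plexus genes that differed or were among the 5 highest, and the genes most alike in pattern (10 for the mean of the 7, of which 1 is not reported here, and 1 for each gene). Alternatives were other filters, pseudocounts, scalings, FPKM, no variance trend, the highest entry per name, all 16 libraries in 1 fit, each library left out, and 3 libraries low in nuclear RNA left out, the last chosen after seeing the data. Correlations used Python 3.11.15 with numpy 2.4.6 and scipy 1.17.1, and promoter windows came from RefSeq (GRCm38.p6).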

Additional observations from a re-analysis of the deposited data

Results flagged for a closer look

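A library stood apart from the other 3 of its group in 7 of 64 groups of 4 values tested for the 7 genes and the 9 list sums by the gap of its value over the range of the group. For independent values of a normal distribution, chance would give about 1 such group in 20. TPM near 0 and a sum that contains Ttr do not meet these conditions, so the count is not judged against that rate. Ttr had 190.8 TPM in p16 KO CTL 7, against 12.48 to 25.22 TPM in the others of its group. The sum of the 7 genes was 283.2 TPM in the same library, against 83.2 to 94.52 TPM. Kl had 16.03 TPM in p16 KO RUN 13, against 14.62 to 14.81 TPM. Folr1 was listed at 0 in p16 KO RUN 15, against 0.572 to 0.627 TPM. Aqp1 had 0.0870 TPM in p16 KO RUN 14, against 0.453 to 0.522 TPM. The sum of the 11 ependymal markers was 54.91 TPM in p16 KO CTL 8, against 34.41 to 37.66 TPM, and Folr1 had 1.01 TPM there. The sum of the 4 blood markers was 471.5 TPM in p16 WT CTL 1, against 164.3 to 213.7 TPM, and Ttr had 33.3 TPM there.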

How the results depend on the processing

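Of 424 log2 differences of the 7 genes under the alternatives that kept all libraries or left out the 3 low in nuclear RNA, 406 kept their direction and their side of the threshold, 16 changed direction and 2 lost the call. Of 392 with 1 library left out, 327 kept both, 50 changed direction, 9 gained a call and 6 lost it. No paired analysis was possible because the replicate numbers are not shared between groups. Values below 1 TPM rest on few reads and limit Folr1, Otx2, Aqp1 and Clic6.

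The call of Folr1 in Set E was lost, leaving 0 of the 7 genes called, with no filter, with a pseudocount of 0.01 and with the filter at 1 TPM, which removed Folr1. Otx2 in Set B was 0.046 with a pseudocount of 1, 0.13 with quantile normalization and 0.047 on FPKM. In the interaction, Ttr was -0.0069 with a pseudocount of 1, and Folr1 was -0.020 with a pseudocount of 1, -0.19 with 0.01 and -0.14 with quantile normalization. Set B had 2205 genes called with all 16 libraries in 1 fit, against 1158. Without the 3 libraries low in nuclear RNA, Set A had 1470 genes called, against 3196, and the directions that changed were 0.41 for Ttr and 0.085 for Aqp1 in Set A, -0.025 for Kl in Set B, -0.0077 for Kl and 0.12 for Enpp2 in Set C, -0.076 for Kl and 0.13 for Enpp2 in Set D and -0.18 for Folr1 and 0.18 for Aqp1 in the interaction. The causes were not tested.

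With 1 library left out, the number of genes called at an unadjusted p under 0.05 ran from 2023 (without p16 KO CTL 7) to 4738 (without p16 KO CTL 5) in Set A, from 557 (without p16 KO CTL 7) to 3029 (without p16 WT CTL 2) in Set B, from 531 (without p16 WT RUN 10) to 1018 (without p16 WT CTL 2) in Set C, from 486 (without p16 WT RUN 9) to 1048 (without p16 WT RUN 12) in Set E and from 619 (without p16 WT CTL 3) to 2381 (without p16 WT CTL 2) in the interaction. The number of the 7 genes called ran from 0 to 1 in Set A, from 0 to 2 in Set B, from 0 to 1 in Set D, from 0 to 2 in Set E and from 0 to 1 in the interaction. The log2 differences ran in Set A from -0.12 to 1.04 for Otx2, from -1.24 to 0.12 for Ttr, from -0.78 to 0.32 for Folr1 and from -0.34 to 0.23 for Aqp1. In Set B they ran from -0.51 to 0.64 for Otx2. In Set C they ran from -0.15 to 0.12 for Enpp2, from -0.0077 to 0.15 for Kl and from -0.36 to 0.072 for Aqp1. In Set D they ran from -0.75 to 0.11 for Clic6, from -0.13 to 0.15 for Enpp2, from -0.076 to 0.078 for Kl, from -0.20 to 0.60 for Ttr and from -0.0081 to 1.01 for Otx2. In Set E they ran from -0.063 to 0.17 for Enpp2 and from -0.55 to 0.020 for Aqp1. In the interaction they ran from -0.69 to 0.97 for Ttr, from -0.26 to 0.84 for Folr1, from -0.25 to 0.31 for Aqp1 and from -0.18 to 1.00 for Clic6.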
